A study of Flaveria bidentis and Flaveria robusta with 100 samples.

Results

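The onset of night was followed in mature leaves of Flaveria robusta, a C3 species of the daisy family, by comparing the last lit sample of the day with the first dark one. Members were chosen by regime, day and hour. They are the F. robusta samples of zeitgeber time (ZT) 08 and ZT12 on both light/dark days, LD1 and LD2, and on the first day of constant light, LL1. These are 12 of the 100 libraries of the series, which enter as 6 of the 50 deposited means, each the authors' mean of 2 biological replicates. In LD the lights went off at ZT10, so ZT12 was 2 h into the night. In LL1 they stayed on, and the same clock hours were sampled in light. The other libraries of F. robusta cover the remaining hours of the course, and F. bidentis, a C4 species, was sampled in parallel.

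Plants of both species were kept for 36 days in the greenhouse before 6 days in a climate chamber, where 10 h of light (22 °C) alternated with 14 h of darkness (20 °C). Darkness and the drop of 2 °C came together in LD, so their parts in any change at ZT12 cannot be told apart. The labels name no transgene or chemical treatment. The labels do not say whether the replicates were separate plants, and only their mean was used. The errors below therefore measure the spread between the 2 LD days, pooled over all LD hours after a common day shift was fitted. Values are RPM, reads scaled to the total of each library and assigned to Arabidopsis gene identifiers. Near-identical copies, such as NIA1 with NIA2 and the NADP-ME genes, moved in parallel at similar values and are uncertain as single genes. Gene symbols and roles are those of the Arabidopsis genes. Library depth behind the means is not given by the columns used.

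In plants the circadian clock is a set of repressors that follow each other through the day. CCA1 and LHY act at dawn, the PRR proteins PRR9, PRR7 and PRR5 in turn through the day, and TOC1 with the evening complex of ELF3, ELF4 and LUX at dusk. Light reaches these genes through phytochromes and cryptochromes, which stabilise the transcription factor HY5. At night leaves stop synthesising chlorophyll, break down the starch stored during the day and export the sugar. A change between ZT08 and ZT12 can therefore come from the hour, from the loss of light, or from both, and the LL1 interval holds the hour without the loss of light.

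The samples carried the markers of their labels. The 15 light harvesting antenna genes summed to between 119462 and 133004 RPM in the 3 ZT08 means, and the 4 listed markers of dividing cells to between 5.5 and 12.5 RPM in the 4 LD means. PPC1 encodes a phosphoenolpyruvate carboxylase, the type of enzyme that fixes carbon in C4 leaves. It stood at 303.5 and 341 RPM at ZT08 in F. robusta against 19465 and 20760 RPM in F. bidentis. Among the 6 means of the interval, LD2 ZT12 stood apart in composition. In LD2 ZT12 the 10 most abundant genes took 8.26% of all reads, against 14.1% in LD1 ZT12, 14.4% in LL1 ZT12 and 17.2% to 19.8% in the ZT08 means. Other F. robusta means of the course came near it, such as LD2 ZT16 (8.40%) and ZT08 of the second day of constant light, LL2 (9.40%). Since RPM are shares of a library, the median gene moved with this composition. The median change over all genes was 0.39 on the log2(RPM + 1) scale as deposited and -0.01 after rescaling by trimmed means of M values (TMM).

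Across the genome, 1250 of the 13503 tested genes (9.26%) changed between ZT08 and ZT12 in LD at an adjusted p under 0.05 in limma. Of these, 1115 (8.26%) were higher at ZT12 and 135 (1.0%) lower. After TMM 360 genes (2.67%) were called, 136 higher (1.01%) and 224 lower (1.66%), so the excess of higher genes turned into an excess of lower ones. Called in both scalings were 136 higher (1.01%) and 124 lower (0.918%). Without LD2 ZT12, 89 genes (0.659%) were called, 53 higher (0.393%) and 36 lower (0.267%). The genes that stayed called as deposited, after TMM and in each of 4 fits that left out 1 dusk mean numbered 26 higher and 20 lower.

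Of the genes named below, those called in every one of these fits were PRR9, PRR5, LNK1, CO, COL5, COL9, CDF2, CDF3, PGR5, CHLH, CAO, PPT2, HSFA2, HSP17.6 and HSP90.1, with AT3G24500, AT4G25200, AT3G20660, AT5G24930, AT2G20570, AT5G44190, AT2G31250, AT2G20670 and AT3G52740. LHY, HY5, ZEP, GBSS1, HEMA2, BCH1, CCD4, SIG5, HSP101, AT4G27280 and AT3G24190 held after TMM and without LD2 ZT12 but were lost in at least 1 other left-out fit. Every other dusk call named below was lost without LD2 ZT12. Each fit without 1 of the 4 dusk means called fewer genes, the fewest without LD2 ZT08. A lost call therefore need not come from the LD2 ZT12 mean. Without LD2 ZT12 the log2 change of PHYB was 1.08 against 1.05 with it, and that of CCA1 -0.93 against -0.86. That of EXL4 was smaller, 1.76 against 2.35. The calls lost after TMM as well were TOC1, ELF3, PHYB, BBX21, the TPS genes, IVD, SBE2.2, PWD, BAM4, LHCB6, RCA, PORC, PPC1, HSP70 and the guard cell and epidermis markers.

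Of 20 tested members of the core clock, 5 fell across dusk (PRR9, PRR5, LNK1, LHY and CCA1) and 3 rose (JMJD5, TOC1 and ELF3), against 1.0% lower and 8.26% higher of all genes. After TMM 9 were lower and 1 higher, against 1.66% and 1.01%, and without LD2 ZT12 4 were lower and 0 higher, against 0.267% and 0.393%. The list median was -0.19 on the log2 scale, against 0.39 for all genes. PRR5 stood at 46 and 52 RPM at ZT08 of LD1 and LD2 and at 4.5 and 11.5 RPM at ZT12. The ZT12 values lie below both ZT08 values, and the fitted log2 change was -2.59 ± 0.32 (SE; adjusted p = 0.00205). In LL1, with the lights on, PRR5 went from 51 to 15 RPM.

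PRR9, the earliest of the daytime repressors, stood at 27.5 and 39.5 RPM before dusk and at 4.5 and 6.5 RPM after it. Its log2 change was -2.40 ± 0.29 (SE; adjusted p = 0.00196), and in LL1 it went from 32 to 8.5 RPM. LNK1, a transcriptional coactivator of clock genes, went from 79 and 78.5 RPM to 20 and 23.5 RPM, and in LL1 from 71 to 28 RPM. The ZT12 values of both genes lay well below every ZT08 value in LD and in LL1. LNK1 fell by 1.81 ± 0.18 on the log2 scale (SE; adjusted p = 0.000995). PRR5, PRR9 and LNK1 were called in every fit.

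The dawn genes fell as well. LHY went from 16 and 16.5 RPM to 4.5 and 6.5 RPM, a log2 change of -1.43 ± 0.23 (SE; adjusted p = 0.00722). CCA1 went from 11 and 10.5 RPM to 5 and 6 RPM, a log2 change of -0.86 ± 0.20 (SE; adjusted p = 0.0298). Both stayed called after TMM. Over the 4 fits that left out 1 dusk mean, the adjusted p lay between 0.099 and 0.15 for CCA1 and between 0.049 and 0.068 for LHY, so the calls did not survive the loss of a mean except for LHY in 1 fit. In LL1 LHY went from 13 to 4.5 RPM and CCA1 from 10 to 5.5 RPM, so that the lit interval held the same direction.

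Of the genes that rose, JMJD5, a histone demethylase with evening expression, went from 7.5 and 9.5 RPM to 36 and 39.5 RPM, and its ZT12 values exceeded both ZT08 values on each day. Its log2 change was 2.03 ± 0.28 (SE; adjusted p = 0.00329), with an adjusted p of 0.00988 after TMM and 0.0525 without LD2 ZT12. TOC1, the dusk repressor, went from 15 and 26.5 RPM to 52 and 70.5 RPM, and in LL1 from 26.5 to 91 RPM. ELF3, the scaffold of the evening complex, went from 11 and 13 RPM to 20 and 25 RPM.

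Both rose as deposited, TOC1 by 1.55 ± 0.39 (SE; adjusted p = 0.0388) and ELF3 by 0.85 ± 0.21 (SE; adjusted p = 0.0346) on the log2 scale. Neither call held after TMM, where the adjusted p was 0.157 for TOC1 and 0.247 for ELF3, nor in any of the 4 left-out fits. GI, which stabilises the photoreceptor protein ZTL, stood at 761 and 886.5 RPM and then at 805.5 and 1051.5 RPM, with overlapping hours and an adjusted p of 0.64. ELF4 and LUX, the other evening complex members, stood at 1 to 2 RPM and 8.5 to 11.5 RPM before dusk and at 2.5 to 3.5 RPM and 9 to 13 RPM after it, and were not called. PRR7, PRR3, RVE8 and RVE6 were lower only after TMM.

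**Figure D1:**
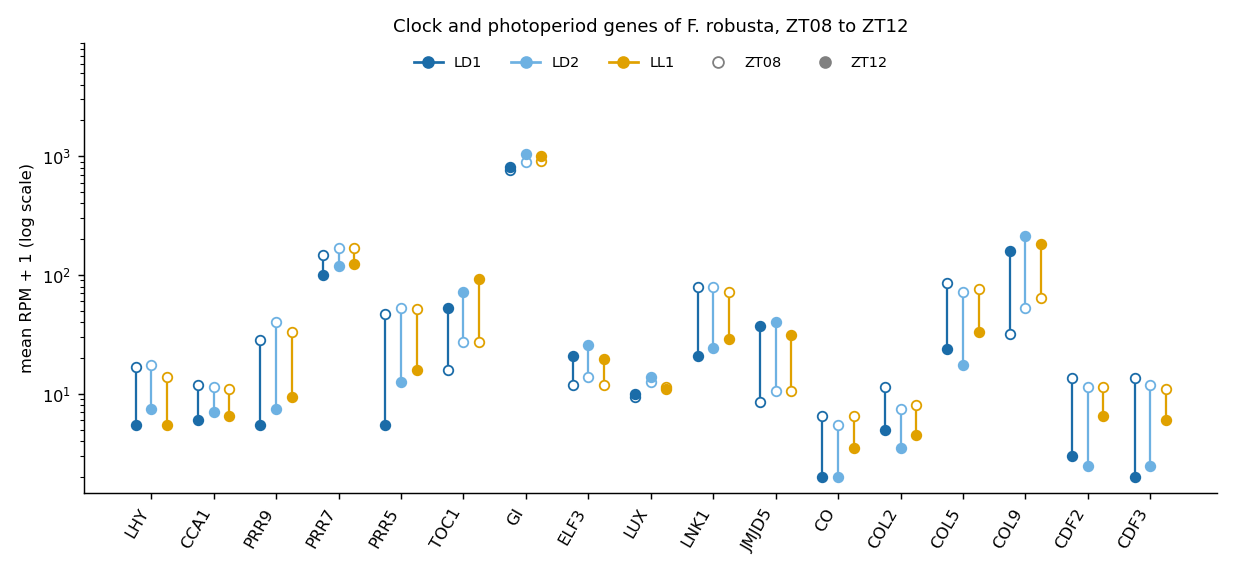
Mean RPM plus 1 (log scale) of 11 clock and 6 photoperiod genes of F. robusta at ZT08 (open) and ZT12 (filled) on LD1, LD2 and LL1, each point the authors' mean of 2 replicates. PRR9, PRR5, LNK1, CO, COL5, CDF2 and CDF3 are lower and JMJD5 and COL9 higher at ZT12 on all 3 days, and the CDF genes and CO end higher in LL1 than in LD.

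Of the 10 tested clock outputs that time flowering, 5 fell (CO, COL2, COL5, CDF2 and CDF3), COL9 rose and 4 were not called. The counts were the same after TMM and 4 lower and 1 higher without LD2 ZT12, against the same shares of all genes as for the clock, and the list median was -0.58. CDF3, a DOF factor that represses CO, went from 12.5 and 11 RPM to 1 and 1.5 RPM. Its close relative CDF2 went from 12.5 and 10.5 RPM to 2 and 1.5 RPM. CO itself, the activator of the florigen gene FT, went from 5.5 and 4.5 RPM to 1 and 1 RPM. All 3 had ZT12 values far below those of ZT08, and all were called in every fit.

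The log2 changes were -2.51 ± 0.20 for CDF3 (SE; adjusted p = 0.000476), -2.19 ± 0.20 for CDF2 (adjusted p = 0.000631) and -1.58 ± 0.21 for CO (adjusted p = 0.0030). In LL1 the same genes ended at 5, 5.5 and 2.5 RPM at ZT12. COL5, a CO relative, went from 85 and 70.5 RPM to 23 and 16.5 RPM, a log2 change of -1.94 ± 0.20 (SE; adjusted p = 0.0010). COL9, a relative that delays flowering in Arabidopsis, moved the other way, from 31 and 51.5 RPM to 159.5 and 213 RPM. It rose by 2.18 ± 0.27 on the log2 scale (SE; adjusted p = 0.00205), and in LL1 it went from 63 to 182 RPM.

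COL2 fell by 1.15 ± 0.25 on the log2 scale (SE; adjusted p = 0.0236), from 10.5 and 6.5 RPM to 4 and 2.5 RPM, and was called in 0 of the 4 left-out fits. FT stood at 1 and 1.5 RPM before dusk and at 5 and 1.5 RPM after it, and was not called. Beyond the lists, AT5G24930, described as CONSTANS-like 4, went from 57 and 64 RPM to 11 and 9 RPM. Its log2 change of -2.49 ± 0.22 (SE; adjusted p = 0.00048) was called in every fit, and in LL1 it went from 63.5 to 21.5 RPM.

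Among the genes of light signalling, 2 of 25 fell (HY5 and BBX24) and 2 rose (PHYB and BBX21). The rises were near the 8.26% of all genes called higher, and 1.0% of all genes were lower. After TMM 2 were lower and 0 higher, against 1.66% and 1.01% of all genes. HY5 promotes the expression of light-induced genes and its protein is degraded in the dark. It went from 8.5 and 12.5 RPM to 2.5 and 4 RPM in LD, and from 12 to 20 RPM in LL1. The ZT12 values in LD were the lowest of the 6, and that of LL1 the highest. Its fall in LD was 1.44 ± 0.24 on the log2 scale (SE; adjusted p = 0.00912), and it stayed called after TMM and in 2 of the 4 left-out fits.

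BBX24, a B-box factor that counteracts HY5, went from 36 and 33.5 RPM to 13 and 20 RPM in LD and from 33.5 to 28.5 RPM in LL1. Its log2 change was -1.06 ± 0.21 (SE; adjusted p = 0.0184). PHYB, the main red light receptor, went from 51 and 61 RPM to 120.5 and 112.5 RPM, and in LL1 from 67.5 to 108.5 RPM. It rose by 1.05 ± 0.19 on the log2 scale (SE; adjusted p = 0.0129), a call that ended after TMM (adjusted p = 0.131). BBX21, also a B-box factor, rose at low level from 1 and 1.5 RPM to 3 and 4.5 RPM, as deposited only.

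The other 21 tested members were not called as deposited, and the list median was 0.07. They include the receptors PHYA, CRY1, CRY2, PHOT1 and PHOT2 and the factors PIF1, PIF3 and PIF7. CRY1, a blue light receptor, was at 139.5 and 148.5 RPM before dusk and at 99 and 156.5 RPM after it, with overlapping hours. PIF7, which promotes growth in shade, was at 6 and 5.5 RPM and then at 10 and 10 RPM, with an adjusted p of 0.13.

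The largest loss of transcript by amount was in the photosynthetic antenna. The 15 light harvesting genes, whose proteins bind chlorophyll around the photosystems, summed to 131448 and 133004 RPM at ZT08 of LD1 and LD2. At ZT12 they summed to 54849 and 24243.5 RPM, below either ZT08 sum. In LL1 they went from 119462 to 58264 RPM, a ZT12 sum close to that of LD1 and above that of LD2. The list median of the log2 change was -1.63 in LD and -0.95 in LL1, against 0.39 and 0.13 for all genes.

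Of these 15 genes 5 fell and 0 rose at a background of 1.0% lower, with 1 lower after TMM and 0 without LD2 ZT12. LHCA3, a photosystem I antenna gene, went from 4871 and 4672.5 RPM to 1886.5 and 866.5 RPM. It fell by 1.90 ± 0.35 on the log2 scale (SE; adjusted p = 0.0135) and was the member that stayed called after TMM. LHCB6, a minor antenna gene of photosystem II, went from 6860.5 and 7037 RPM to 2103 and 772.5 RPM. In both genes the LD2 ZT12 value lay well below that of LD1 ZT12.

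LHCB6 fell by 2.45 ± 0.58 on the log2 scale (SE; adjusted p = 0.0352 as deposited and 0.0598 after TMM), and its change without LD2 ZT12 was -1.78 (adjusted p = 0.252). The error is pooled over all LD hours, so the distance between the 2 ZT12 means is only a part of it. In 13 of the 15 genes the change was below zero on both days, against 861 of all 13503 genes. In a whole leaf, fewer cells of a type and less RNA per cell cannot be told apart. Of 21 genes of the photosystem cores and electron transport 3 fell, against 1.0% of all genes. PGR5, which is needed for cyclic electron flow, went from 104.5 and 89 RPM to 19.5 and 30 RPM, a log2 change of -1.95 ± 0.25 (SE; adjusted p = 0.00236) called in every fit.

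**Figure D2:**
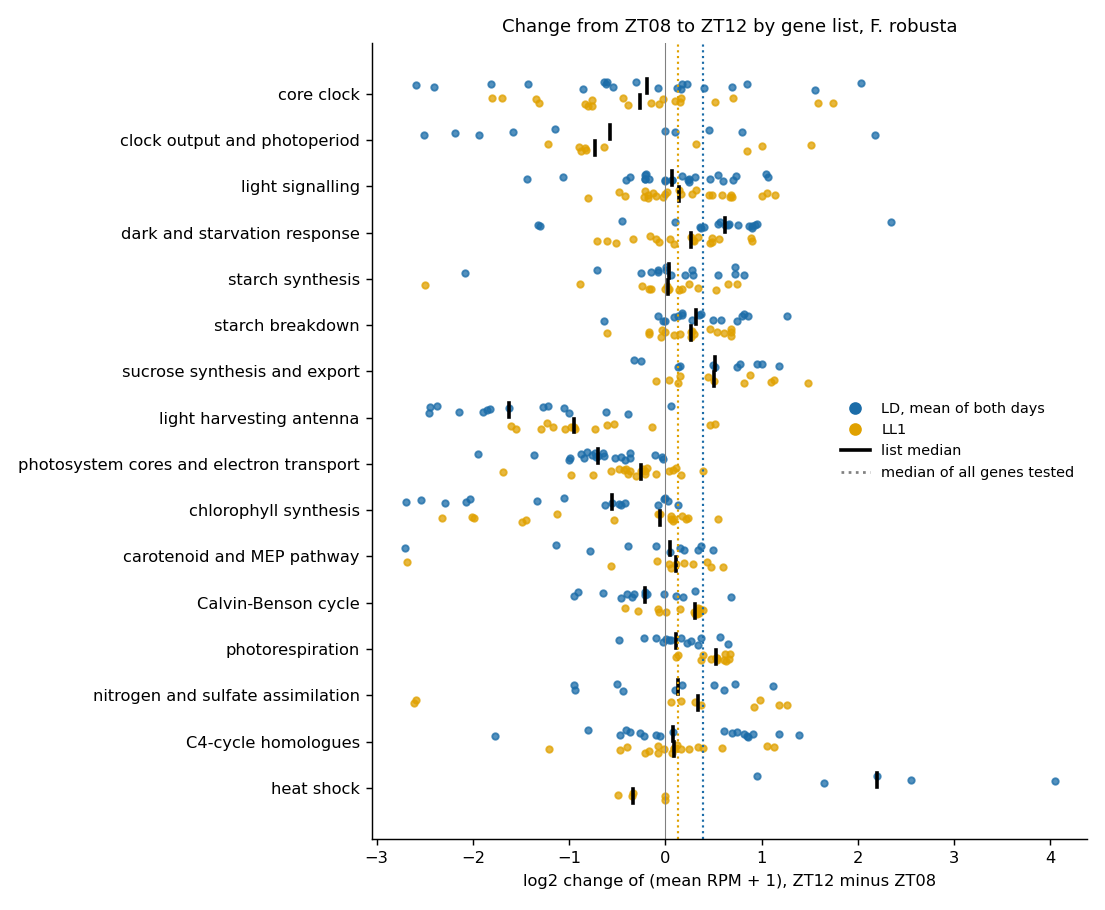
Log2 change of (mean RPM + 1) from ZT08 to ZT12 for each tested member of 16 gene lists in F. robusta, in LD (blue, fitted over both days) and in LL1 (yellow). Black bars are list medians and dotted lines the medians of all genes, 0.39 in LD and 0.13 in LL1; the heat shock list has its median at 2.195 in LD and at -0.33 in LL1.

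Chlorophyll synthesis had more called members than any of the other photosynthetic lists. Of 17 tested genes 7 fell and 0 rose, with 6 lower after TMM and 3 without LD2 ZT12, against 1.0%, 1.66% and 0.267% of all genes lower, and the list median was -0.55. CAO, the oxygenase that makes chlorophyll b, went from 408 and 402.5 RPM to 64.5 and 59 RPM. Its 2 days agree closely, and its log2 change of -2.70 ± 0.19 (SE; adjusted p = 0.000193) was called in every fit. In LL1 it went from 321.5 to 63.5 RPM. The dark ZT12 level, fitted for LD1, minus the lit one was -0.04 ± 0.23 (SE) on the log2 scale.

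CHLH, the magnesium chelatase subunit that commits porphyrin to chlorophyll, went from 4008.5 and 5851 RPM to 1159.5 and 599 RPM, and in LL1 from 4219 to 1048 RPM. It fell by 2.54 ± 0.31 on the log2 scale (SE; adjusted p = 0.00203) and was called in every fit. HEMA2, a glutamyl-tRNA reductase gene at the start of the pathway, went from 531.5 and 613 RPM to 173 and 106 RPM. CRD1, a subunit of the cyclase, went from 4615.5 and 4517 RPM to 1361.5 and 922.5 RPM. Both fell, by 2.07 ± 0.27 and 2.03 ± 0.31 on the log2 scale (SE; adjusted p = 0.0028 and 0.0063), and both stayed called after TMM.

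PORB, PORC and DVR, which carry out late reductions in the pathway, also fell as deposited, and PORB had a change of -1.58 without LD2 ZT12 against -2.29 with it. The other 10 tested genes of the pathway were not called, Beyond the lists, both genes of the GOLDEN2-like factors, which activate antenna and chlorophyll genes in Arabidopsis, fell. AT2G20570, deposited under its synonym GBF's pro-rich region-interacting factor 1, went from 31 and 27 RPM to 4.5 and 3.5 RPM. AT5G44190, GOLDEN2-like 2, went from 21 and 21.5 RPM to 5 and 5 RPM.

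AT2G20570 fell by 2.59 ± 0.22 and AT5G44190 by 1.89 ± 0.18 on the log2 scale (SE; adjusted p = 0.00048 and 0.00080), and both were called in every fit. In LL1 they ended at 8.5 and 8 RPM, above both LD values of ZT12. AT2G31250, a glutamyl-tRNA reductase family gene, fell and went from 64 and 72 RPM to 17 and 12.5 RPM.

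Carotenoid genes fell in 3 of 11 cases, against 1.0% of all genes, with the same count after TMM. CCD4, which cleaves carotenoids, went from 1169.5 and 1437.5 RPM to 117.5 and 333 RPM and in LL1 from 1117.5 to 173 RPM. Its log2 change was -2.71 ± 0.53 (SE; adjusted p = 0.020), and -3.42 without LD2 ZT12. PSY, the entry enzyme of the pathway, went from 210 and 238 RPM to 124 and 136 RPM in LD and from 221.5 to 254 RPM in LL1. BCH1, a hydroxylase, went from 46.5 and 30.5 RPM to 14.5 and 19 RPM in LD and from 23.5 to 36 RPM in LL1.

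PSY fell by 0.78 ± 0.21 and BCH1 by 1.14 ± 0.26 on the log2 scale in LD (SE; adjusted p = 0.0428 and 0.029), whereas their LL1 values were higher at ZT12 than at ZT08. ZEP, which makes violaxanthin from zeaxanthin, went from 797 and 1088 RPM to 257.5 and 328 RPM. It fell by 1.68 ± 0.22 on the log2 scale (SE; adjusted p = 0.0028) and was called in 3 of the 4 left-out fits. SIG5, a light-responsive sigma factor of the plastid polymerase, went from 49 and 70.5 RPM to 16 and 21.5 RPM, and in LL1 from 62.5 to 38 RPM. It fell by 1.61 ± 0.21 (SE; adjusted p = 0.00272), the 1 called member of 5 tested sigma factors, against 1.0% of all genes lower.

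Of 15 Calvin-Benson genes 2 fell, RCA and FBA1, and 0 rose, against 1.0% lower and 8.26% higher of all genes. After TMM 1 was lower, against 1.66% of all genes. The list sum went from 108766 to 102934 RPM on LD1 and from 115321 to 59155.5 RPM on LD2. In LL1 it went from 93072 to 103702 RPM. The sum thus fell on both LD days, more so on LD2, whose ZT12 mean stands apart in composition. As deposited, the change lay below that of LL1 on both LD days in 13 of the 15, against 13.3% of all genes. After TMM the share of all genes was 31.5%, and the list was not counted. RCA, which reactivates Rubisco, went from 21784 and 23087.5 RPM to 14340 and 9358 RPM, a log2 change of -0.95 ± 0.25 (SE; adjusted p = 0.0416 as deposited and 0.087 after TMM). FBA1, a plastid aldolase, fell by 0.90 ± 0.21 (SE; adjusted p = 0.0304). None of the 14 photorespiration genes was called, against 9.26% of all genes, a list too short to set apart from that share. Their median change was 0.11 in LD and 0.53 in LL1.

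Starch genes were called in a few cases only. GBSS1, the granule-bound synthase that makes amylose and is under clock control in Arabidopsis, went from 267 and 209.5 RPM to 48 and 63 RPM. In LL1 it went from 171 to 29.5 RPM, and in LD it fell by 2.08 ± 0.30 on the log2 scale (SE; adjusted p = 0.00426). It was called after TMM and in 3 of the 4 left-out fits. Of the 16 tested genes of starch synthesis it was the 1 that fell, against 1.0% of all genes. SBE2.2, a branching enzyme, rose as deposited by 0.73 ± 0.19 (SE; adjusted p = 0.041) and not after TMM.

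Of 18 genes of starch breakdown 2 rose as deposited, near the 8.26% of all genes, and 0 after TMM. PWD, a dikinase that phosphorylates the granule surface, went from 188 and 260 RPM to 481 and 584.5 RPM, and in LL1 from 334 to 537.5 RPM. It rose by 1.26 ± 0.20 on the log2 scale (SE; adjusted p = 0.00722 as deposited and 0.0942 after TMM). BAM4, which regulates breakdown without acting as an amylase in Arabidopsis, rose by 0.86 ± 0.22 (SE; adjusted p = 0.0403 as deposited and 0.406 after TMM). GWD1, the first dikinase of the pathway, stood at 470 and 701.5 RPM and then at 997 and 1033 RPM, with an adjusted p of 0.058.

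BAM1, a beta-amylase, stood at 187 and 165 RPM before dusk and at 103 and 123 RPM after it in LD, but at 161.5 and then 260.5 RPM in LL1. Its LD change of -0.64 ± 0.29 (SE) was not called as deposited (adjusted p = 0.137) and was lower after TMM (adjusted p = 0.046). The sum of the 18 genes was 3298 and 4302 RPM at ZT08 and 5198 and 5578.5 RPM at ZT12 in LD, against 4602.5 and 5167 RPM in LL1. Of 11 genes for sucrose synthesis and export, 3 rose as deposited, against 8.26% of all genes, and 0 after TMM.

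Of 19 tested genes that respond to darkness and sugar starvation, 5 rose, 0 fell and 14 were not called 2 h into the night, at a background of 8.26% higher. After TMM 1 was called higher, against 1.01% of all genes. The median change was 0.62, against 0.39 for all genes, and 0.17 against -0.01 after TMM. EXL4, a member of the EXORDIUM-like family, went from 5.5 and 4 RPM to 15 and 51.5 RPM in LD and from 4 to 6 RPM in LL1. It rose by 2.35 ± 0.46 on the log2 scale (SE; adjusted p = 0.0193) and was the 1 called after TMM, but its change without LD2 ZT12 was 1.76 (adjusted p = 0.16).

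The other 4 that rose as deposited were TPS7, TPS9, TPS10 and TPS11, which encode trehalose phosphate synthase-like proteins and respond to carbon supply in Arabidopsis. TPS9 went from 20.5 and 18.5 RPM to 40 and 37.5 RPM in LD and from 23 to 24.5 RPM in LL1. Log2 changes of the 4 lay between 0.87 and 0.96, and none was called after TMM. ASN1, the dark-inducible asparagine synthetase, stood at 14.5 and 17.5 RPM and then at 23 and 28.5 RPM, with an adjusted p of 0.055. DIN1, DIN3, DIN9, DIN10 and DIN11, DRM1 and KIN10, the kinase that acts in starvation signalling, were not called either.

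BT4 and BT5, scaffold proteins of the BTB-TAZ family, stood at 11.5 and 12.5 RPM and at 9 and 9 RPM before dusk. They stood at 3.5 and 5 RPM and at 2 and 4.5 RPM after it, with an adjusted p of 0.10 for both. Among 9 genes of amino acid breakdown, PRODH1 and IVD rose, against 8.26% of all genes. After TMM 1 was higher, against 1.01% of all genes. PRODH1, proline dehydrogenase, went from 0.5 and 0 RPM to 9.5 and 13 RPM in LD and from 0.5 to 5.5 RPM in LL1 (adjusted p = 0.00756 as deposited and 0.0112 after TMM). IVD, which degrades leucine, rose by 0.96 ± 0.21 on the log2 scale (SE; adjusted p = 0.0246) as deposited only.

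Heat shock genes rose at dusk in LD and stood level or lower in LL1. These genes encode chaperones and their regulators and are known for induction by heat. All 5 tested members of the list rose, against 8.26% of all genes, and 4 of them also after TMM, against 1.01%. The median log2 change was 2.195 in LD against -0.33 in LL1. By the labels, the chamber regime of LD was 2 °C cooler in the dark than in the light. Measured temperatures at the sampled hours are not given, and the cause of the rise was not tested. HSFA2, a transcription factor that drives chaperone genes, went from 2 and 1.5 RPM to 23.5 and 9.5 RPM in LD and stood at 2 RPM at both hours of LL1.

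The HSP17.6 gene, a small chaperone, was listed at 0 and 0.5 RPM before dusk and at 30.5 and 12 RPM after it, and at 0 RPM at both hours of LL1. HSP90.1, an abundant chaperone, went from 433 and 352 RPM to 1140.5 and 1319 RPM in LD and from 436.5 to 343 RPM in LL1. HSP101, a disaggregase, went from 24 and 37.5 RPM to 182.5 and 109 RPM in LD and from 35.5 to 28 RPM in LL1. In all 4 genes both dark values lie above every lit value of the 6 means.

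HSFA2 rose by 2.55 ± 0.27 (SE; adjusted p = 0.00119), HSP90.1 by 1.65 ± 0.20 (adjusted p = 0.00203) and HSP101 by 2.195 ± 0.34 (adjusted p = 0.00696) on the log2 scale, and HSP17.6 passed with an adjusted p of 0.00175. HSFA2, HSP17.6 and HSP90.1 were called in every fit, and HSP101 in 2 of the 4 left-out fits. HSP70 rose from 724.5 and 707 RPM to 1229.5 and 1566.5 RPM, a call that ended after TMM (adjusted p = 0.209). HSP70 copies share sequence and are uncertain as single genes.

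The wider set of genes whose deposited description names heat shock held 66 tested members. Of these 13 rose and 1 fell, against 8.26% and 1.0% of all genes. After TMM 5 rose and 2 fell, against 1.01% and 1.66% of all genes. The list median was 0.56 in LD and -0.01 in LL1. In 10 of the 13 the LL1 change was at or below zero, against 146 of all 1115 genes called higher (13.1%). The change in LD exceeded that in LL1 on both days in 56 of the 66, against 54.1% of all genes tested. AT4G25200, a mitochondrial small heat shock protein, went from 3 and 2.5 RPM to 17 and 15 RPM in LD and from 2 to 3.5 RPM in LL1. It rose by 2.18 ± 0.28 on the log2 scale (SE; adjusted p = 0.0028) and was called in every fit. The member that fell was AT5G03720, heat shock transcription factor A3, which went from 13.5 and 17 RPM to 7.5 and 5.5 RPM in LD and from 16.5 to 5 RPM in LL1.

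The largest rise among the genes named beyond the lists was that of AT3G24500, multiprotein bridging factor 1C, a coactivator needed for heat tolerance in Arabidopsis. It went from 2 and 2 RPM to 49 and 28 RPM in LD. In LL1 it stood at 3.5 and then 1 RPM, below both dark values. It rose by 3.67 ± 0.34 on the log2 scale (SE; adjusted p = 0.00063) and was called in every fit.

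**Figure D3:**
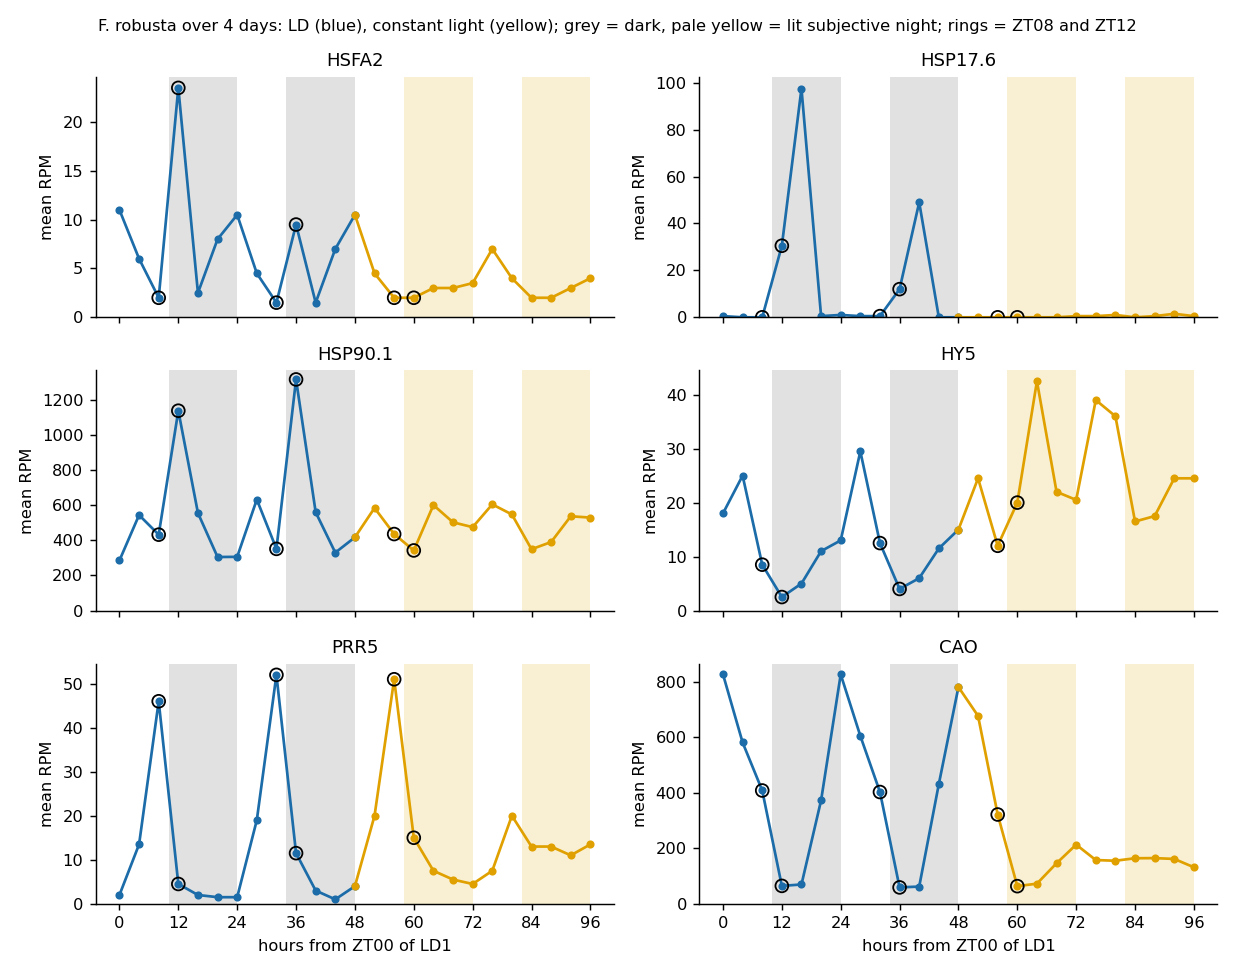
Mean RPM of 6 genes over the 25 F. robusta time points, LD in blue and constant light in yellow, with the dark in grey, the lit subjective night in pale yellow, and rings on ZT08 and ZT12 of LD1, LD2 and LL1. HSP90.1 peaks at ZT12 and HSP17.6 at ZT16 (97.5 and 49 RPM) on both LD days, HSFA2 is high at ZT12 and at ZT00, HY5 is lowest at ZT12 of LD, and PRR5 and CAO drop in LL1 too.

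The other hours of the course place these values. HSFA2 was also high at ZT00, with 11, 10.5 and 10.5 RPM at the 3 dawns that followed a dark night, and HSP17.6 was highest at ZT16. After ZT00 of LL1, HSP17.6 stayed at or below 1.5 RPM in all lit means. HSP90.1 did not exceed 606 RPM in constant light.

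Other genes that rose most beyond the lists had mixed descriptions, and no shared class was tested. AT1G12940, nitrate transporter 2.5, went from 2.5 and 2 RPM to 25.5 and 58 RPM in LD and from 6 to 14 RPM in LL1. AT4G00190, pectin methylesterase 38, went from 2.5 and 2 RPM to 21 and 24 RPM, and AT3G20660, an organic cation/carnitine transporter, from 2 and 2 RPM to 15 and 19 RPM. In LL1 both went the same way, to 14.5 and 8 RPM.

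These 3 rose by 3.61 ± 0.52, 2.86 ± 0.38 and 2.58 ± 0.31 on the log2 scale (SE; adjusted p = 0.0065, 0.0033 and 0.0020). Without LD2 ZT12 the change of AT1G12940 was 2.99 (adjusted p = 0.0692), that of AT4G00190 had an adjusted p of 0.0552, and AT3G20660 stayed called. AT4G27280, an EF-hand protein, went from 6 and 3.5 RPM to 28.5 and 33 RPM. AT3G28510 (a nucleoside triphosphate hydrolase), AT4G08895 (a phosphate transporter) and AT3G16510 (a lipid-binding protein) rose by 2.39 to 2.42 on the log2 scale, and in LL1 each was higher at ZT12 too. Their calls were lost without LD2 ZT12 (adjusted p = 0.179, 0.188 and 0.14). Among those that fell, AT2G20670, of unknown function, went from 20 and 17.5 RPM to 1 and 1 RPM in LD and from 17 to 0 RPM in LL1. Its log2 change of -3.30 ± 0.29 (SE; adjusted p = 0.00048) was the deepest of all tested genes, and it was called in every fit. AT2G41250, a haloacid dehalogenase-like hydrolase, went from 43 and 52.5 RPM to 8.5 and 7.5 RPM. AT4G00165 and AT5G46890, of the lipid-transfer protein family, had log2 changes of -2.74 ± 0.57 and -1.92 ± 0.38 (SE; adjusted p = 0.026 and 0.020). Without LD2 ZT12 the changes were -1.85 and -1.36 (adjusted p = 0.184 and 0.175).

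Nitrogen and sulfate assimilation had 0 called members of 10, against 9.26% of all genes. A list of 10 is too short to set 0 calls apart from that share. NIA1, nitrate reductase, stood at 360 and 437 RPM before dusk and at 195.5 and 218.5 RPM after it in LD, and at 354.5 and then 58 RPM in LL1. The lit ZT12 value was thus the lowest of the 6, with nearly the same course in NIA2. NIR1, nitrite reductase, stood at 66 and 103.5 RPM and then at 388 and 83.5 RPM, so its 2 days disagree.

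Of 19 homologues of C4-cycle genes 6 rose and 1 fell as deposited, against 8.26% and 1.0% of all genes, and 0 and 1 after TMM, against 1.01% and 1.66%. The one that fell was PPT2, a phosphoenolpyruvate translocator of the plastid, from 106.5 and 79.5 RPM to 23 and 30 RPM, by 1.77 ± 0.25 on the log2 scale (SE; adjusted p = 0.00368), called in every fit. Among markers of other leaf cell types 2 of 6 for guard cells (MYB60 and KAT2) and 2 of 3 for the epidermis (FDH and GL2) were called higher as deposited, against 8.26% of all genes, and 0 of each after TMM. The guard cell sum was 85 and 86.5 RPM at ZT08 and 108 and 122.5 RPM at ZT12, and the epidermis sum 77 and 81.5 RPM against 151.5 and 192 RPM, with 83 and then 180 RPM in LL1. Their part in the results was not tested. None of 5 vascular, 4 dividing cell and 3 senescence markers was called as deposited, against 9.26% of all genes. These marker lists are too short to be set apart from that share.

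To separate the hour from the loss of light, the change in LD was set against the change in LL1. The 2 intervals share no samples. Of the 1115 genes called higher, 969 (86.9%) also had a change above zero in LL1, against 60.9% of all tested genes, and their median was 0.42 in LL1. Of the 135 called lower, 119 (88.1%) were below zero in LL1, against 29.96% of all tested genes, at a median of -0.83. After TMM these shares were 85.3% and 90.2%, against 47.3% and 52.6% of all tested genes. Most genes called at dusk thus had the same sign while the lights stayed on. Since they were chosen by their LD change, the sizes in LD and LL1 are not compared.

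**Figure D4:**
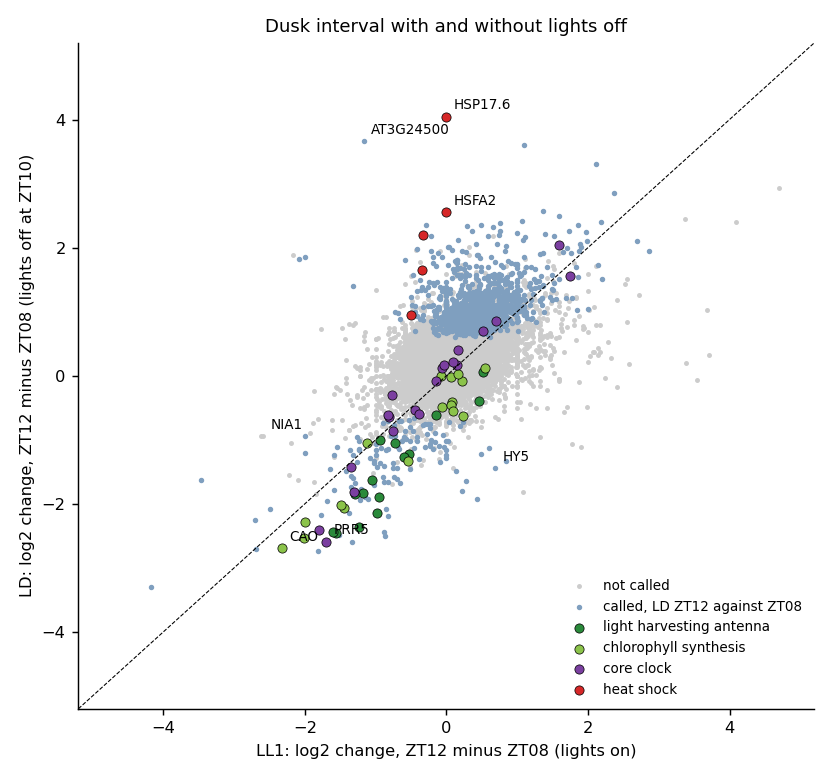
Log2 change of (mean RPM + 1) from ZT08 to ZT12 with lights off (LD, fitted over both days) against the same interval with lights on (LL1) for 13503 genes of F. robusta; the dashed line marks equal changes. CAO lies near the line, HSFA2, HSP17.6 and AT3G24500 lie above it and HY5 below it. Of the 17 chlorophyll genes 12 lie below their LL1 change on both LD days as deposited, against 13.3% of all genes. After TMM the share of all genes was 31.5%, and the list was not counted.

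No gene passed the test of the difference itself. In limma 0 of 13503 genes (0.00%) were called, 538 had an unadjusted p under 0.05 (490 after TMM), and the smallest adjusted p was 0.0663. The lone LL1 means were assumed to vary like the LD means, and the median SE of a difference was 0.42 on the log2 scale against 0.24 for the LD change. AT3G24500 had that smallest p, with a difference of 4.84 ± 0.59 (SE). HSFA2 differed by 2.55 ± 0.47 (adjusted p = 0.27), HSP90.1 by 2.00 ± 0.35 (adjusted p = 0.21) and HY5 by -2.13 ± 0.42 (adjusted p = 0.29). For CAO the difference was -0.37 ± 0.32 and for PRR5 -0.89 ± 0.55, both with an adjusted p of 0.88.

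When ZT12 in the dark was compared directly with ZT12 in the light, 9 genes (0.0667%) were called as deposited and 5 after TMM. They are named here after their values were seen. In this comparison the dark value was the fitted ZT12 level for LD1, with the shift between the LD days removed, rather than the plain mean of both days. The 4 that were higher in the dark (0.0296%) were HSFA2, HSP17.6, HSP90.1 and AT3G24500. The 5 that were lower (0.0370%) were HY5, the protein kinase gene AT3G24190, AT1G49700, AT5G01110 and AT3G52740.

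For HY5 the dark minus lit difference was -2.42 ± 0.31 on the log2 scale (SE; adjusted p = 0.026), with an adjusted p of 0.024 after TMM. The 5 called after TMM were HY5, AT3G24500, AT3G24190, AT3G52740 and AT5G01110, and the 3 chaperone-related genes had adjusted p between 0.10 and 0.12. AT3G24190 went from 57 and 64.5 RPM to 18.5 and 29.5 RPM in LD and from 46.5 to 84.5 RPM in LL1, with the LL1 value at ZT12 the highest of the 6. AT3G52740 went from 10.5 and 11 RPM to 2.5 and 3 RPM in LD and from 10.5 to 13 RPM in LL1. AT1G49700 and AT5G01110 hardly moved in LD and reached 16.5 and 17 RPM in the single lit ZT12 mean.

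The dusk change was also set against that of the C4 species F. bidentis under the same regime, where 364 of 13563 genes (2.68%) differed, 254 higher (1.87%) and 110 lower (0.811%) in F. robusta. After TMM 346 genes (2.55%) differed, 201 higher (1.48%) and 145 lower (1.07%). The dusk change itself was called in 3080 genes (22.7%) of F. bidentis, 2456 higher (18.1%) and 624 lower (4.60%). In 269 of the 364 the 2 species changed with opposite sign. The 364 were chosen for a difference between the species, which favours opposite signs, and the share over all genes was not computed. For PRR5, PRR9 and CAO the difference was not called and was 0.27 ± 0.43 (SE) for PRR5, 0.32 ± 0.56 for PRR9 and -0.04 ± 0.27 for CAO on the log2 scale. Heat shock genes rose in both, with HSP17.6 at 1.5 and 1 RPM before and 55.5 and 61 RPM after dusk in F. bidentis, and the difference for HSP90.1 was -0.34 ± 0.28 (adjusted p = 0.59).

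PPCK1 and PPCK2, kinases that phosphorylate phosphoenolpyruvate carboxylase, had the largest differences among the listed genes called. In F. robusta PPCK2 stood at 31 and 33 RPM before dusk and at 44 and 55.5 RPM after it, whereas in F. bidentis it went from 86.5 and 105 RPM to 3.5 and 4 RPM. The difference was 4.96 ± 0.41 on the log2 scale (SE; adjusted p = 2.1e-05), and it stayed called after TMM and in all 4 fits without 1 F. robusta dusk mean. ASN1 stood at 23 and 28.5 RPM at ZT12 in F. robusta and at 232.5 and 225.5 RPM in F. bidentis, from 20.5 RPM or less at ZT08 in both. The F. robusta minus F. bidentis difference of its dusk change was -3.05 ± 0.40 (SE; adjusted p = 0.0012).

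NIA1 went from 89.5 and 41 RPM to 272 and 277 RPM in F. bidentis, against the lower ZT12 values in F. robusta, a difference of -3.10 ± 0.70 (SE; adjusted p = 0.031). JMJD5 was already at 45 and 45 RPM at ZT08 in F. bidentis and at 62.5 and 59.5 RPM at ZT12, so its dusk change was larger in F. robusta by 1.60 ± 0.32 (SE; adjusted p = 0.013). FLS1, flavonol synthase, stood at 103.5 and 88 RPM and then at 134 and 205.5 RPM in F. robusta. In F. bidentis FLS1 went from 127 and 100.5 RPM to 35.5 and 34.5 RPM, a difference of 2.45 ± 0.46 (SE; adjusted p = 0.011).

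**Figure D5:**
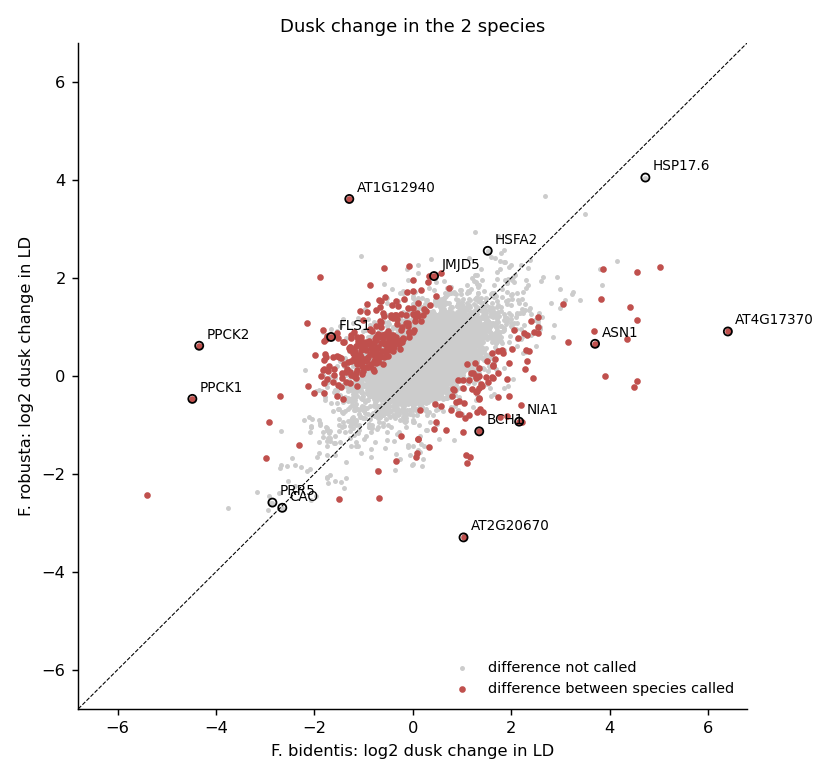
Log2 change of (mean RPM + 1) from ZT08 to ZT12 in LD in F. robusta (vertical) and F. bidentis (horizontal), each over 2 days; red points are genes whose change differed between the species and the dashed line marks equal changes. PRR5, CAO and HSP17.6 lie near the line, while PPCK1, PPCK2, ASN1, NIA1 and AT2G20670 lie far from it. AT2G20670 did not exceed 1.5 RPM in F. bidentis at these hours.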

How the data were processed

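One table held all values. Per the labels' protocols, TruSeq v2 libraries of mature leaves were sequenced as single reads of 100 bases, 12 libraries per lane; CASAVA and TAIR10 are named in the submitters' processing notes without their role. Per the file headers, the authors deposited RPM (reads scaled to a common library total) per library and the mean RPM of each time point. The 200 per-library columns carry numbers that match no sample label and were not used, so the 2 replicates enter only as the authors' mean. Zeitgeber times, regimes and species were read from the labels and column names.

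From the deposited RPM means, log2(RPM + 1) was fitted with limma 3.58.1 in R 4.3.3 (trend and robust) over 12 LD means and 2 LL1 means of F. robusta, with groups by hour and regime and LD day as a block, leaving 5 residual degrees of freedom. The 13503 of 21869 genes that averaged 1 RPM or more across 25 F. robusta means were tested, with Benjamini-Hochberg adjustment and a threshold of 0.05. The species comparison used all 24 LD means. TMM factors (30% of M and 5% of A values trimmed) were computed on RPM. The procedure was tested on simulated data. P-values measure the spread between days only, pooled over all LD hours after the day block.

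Gene lists (25 by symbol, with 309 of 387 genes in the table and 294 tested; 9 by description) and members were chosen with earlier results of these data known. Named genes are list members, the 8 described genes per direction of largest change beyond the lists that were called in both scalings, changed at least 2-fold on both days and reached 10 RPM, and up to 5 per direction for the species difference.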

Additional observations from a re-analysis of the deposited data

Results flagged for a closer look

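In 26 genes of the symbol lists or species selection, the dusk change differed between the species (limma, adjusted p under 0.05). Values are the F. robusta change minus the F. bidentis change on the log2 scale. Of the other genes named above, AT2G41250 (2.98), AT5G24930 (-1.81) and AT4G25200 (-1.68) also differed, in both scalings. These other genes are left out of the calls listed below. ZEP (1.303), GWD1 (1.297), CP12-1 (1.01) and PPC1 (1.23) lost the call after TMM, and the others kept it. Among the clock and photoperiod genes the values were 1.60 for JMJD5, -1.23 for COL5 and -1.01 for CDF3. Among genes of carbon and nitrogen supply they were -3.05 for ASN1, -1.11 for TPS10, -2.01 for ETFQO, -3.10 for NIA1 and -3.16 for NIA2. In the plastid lists they were 1.17 for CP12-3, -2.48 for BCH1, 1.13 for SIG1 and 2.45 for FLS1, a flavonol synthase. PPCK1 had 4.01 and PPCK2 had 4.96.

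Beyond the lists AT1G12940 (nitrate transporter) had 4.90, AT1G31260 (zinc transporter) 3.91 and AT4G33040 (thioredoxin family) 3.24. On the other side AT4G17370 (oxidoreductase family) had -5.50, the peroxidase genes AT4G37520, AT3G49960 and AT2G18980 had -4.73, -4.66 and -3.91, and AT2G20670 had -4.33. AT4G17370 and the peroxidases did not reach 10 RPM in any F. robusta dusk mean. In F. bidentis AT4G17370 went from 1.5 and 0.5 RPM to 178 and 149 RPM. AT2G20670 was near the floor in F. bidentis, at 0 and 0.5 RPM before dusk and 1.5 and 1.5 RPM after it. The fits without 1 F. robusta dusk mean called all 4 times ASN1, ETFQO, BCH1, SIG1, PPCK1, PPCK2, AT1G12940, AT4G17370, the peroxidases and AT2G20670. CDF3, TPS10 and CP12-1 were called in 0 of these 4 fits.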

How the results depend on the processing

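The number of genes called at dusk in LD, 1250, was 360 after TMM, 631 with a change of at least 1 log2 unit, 542 from the 4 dusk means alone and 2198 with LL1 ZT08 as a further ZT08 mean. It was 66 to 215 without 1 dusk mean (66 without LD2 ZT08, 89 without LD2 ZT12, 162 without LD1 ZT08 and 215 without LD1 ZT12), and 72 without LD2 ZT12 and LD2 ZT16. Each of these fits has 1 mean for an hour, whose spread is pooled from the others. It lay between 1114 and 1617 when the pseudocount was 0.1, the filter was dropped or set to 5 RPM, or the day block was left out. For LD against LL1, 0 genes became 2 without the day block (AT1G49700 and AT3G24500), 9 in the direct comparison at ZT12, 466 with LL2 as the lit interval, and 0 to 6 without 1 dusk mean. The 6, without LD2 ZT12, were AT1G06260, AT1G49700, AT1G54470, HSFA2, AT3G24500 and AT3G49340. The median LL1 change of 0.13 was -0.027 after TMM. The species difference of 364 genes was 114 to 305 without 1 F. robusta dusk mean (114 without LD2 ZT12, 154 and 172 without LD1 and LD2 ZT08), and 105 without LD2 ZT12 and LD2 ZT16. Calls among list members, 70 as deposited, were 43 after TMM and 24 without LD2 ZT12. Of 320 values of single genes, 33 lost and 6 gained a call after TMM and 54 lost one without LD2 ZT12, and none changed direction while called; the cause was not tested. No paired analysis was possible because the columns used are means over the numbered replicates; the day was the block instead. Differences of about 1 log2 unit between LD and LL1 are within 3 standard errors at the median so 1 lit day limits what that test can detect.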
